A study of Mus musculus with 35 samples.

Results

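The nuclear genes for subunits of the respiratory chain and ATP synthase were followed across 3 mouse crosses in which folliculin (Flcn) was deleted in kidney tubules, alone or together with one of the transcription factors Tfeb and Tfe3. Members were chosen by gene symbol alone: a symbol beginning with Nduf and one of the letters a, b, c, s or v and a number, Sdha to Sdhd, or a symbol beginning with Uqcr, Cox4 to Cox8 or Atp5, leaving out pseudogenes. This gave 84 of the 31053 genes in the count tables, of which 35 belong to complex I, 4 to complex II, 8 to complex III, 20 to complex IV and 17 to complex V. Ndufa4 and Ndufa4l2 were placed with complex IV, and Atp5o stands under 2 gene identifiers.

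Whole kidneys of C57BL/6 mice were taken at postnatal day 2 and sequenced as 35 QuantSeq libraries, a method that reads the 3′ end of each polyadenylated transcript. The Flcn cross had 5 Flcn KO libraries, from mice with floxed Flcn alleles deleted by Ksp-cre, and 5 controls, and the Flcn/Tfeb cross had 4 Flcn/Tfeb DKO libraries, in which Tfeb flox/flox was added to that genotype, and 3 controls. The Flcn/Tfe3 cross had 10 Flcn/Tfe3 DKO libraries, in which Tfe3-/- was added, a loss present in every cell, and 8 controls. Its libraries came in 2 sets, one labelled in vivo with 6 DKO and 3 control libraries and one labelled CDM with 4 and 5. The labels do not explain the abbreviation CDM. Controls are given in the labels only as controls of their cross, and the study describes control mice as Flcn flox/flox. Ksp-cre is driven by the cadherin 16 promoter and is active in collecting ducts, distal tubules and the thick ascending limb, so the RNA of a whole kidney includes that of cells in which Flcn was not deleted. In such bulk samples a change in the number of cells of a type and a change in RNA per cell cannot be told apart.

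The respiratory chain passes electrons from NADH (complex I) or succinate (complex II) through coenzyme Q, complex III and cytochrome c to oxygen at complex IV, and ATP synthase (complex V) uses the resulting proton gradient to make ATP. Most subunits are encoded in the nucleus, while a small core of complexes I, III, IV and V is encoded in mitochondrial DNA. Nuclear respiratory genes are under the control of NRF1, the GABP factors and the estrogen-related receptors, which are co-activated by PGC-1α (Ppargc1a). FLCN is the protein lost in Birt-Hogg-Dubé syndrome, it keeps TFEB and TFE3 out of the nucleus, and its loss is known to raise PGC-1α activity in several tissues, which is the background for asking how these genes behaved here. Kidney tubules, above all the proximal tubule and the thick ascending limb, are rich in mitochondria.

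Promoter sequences of 68 of the 83 member symbols were matched in RefSeq (GRCm38.p6, 250 bases before to 50 after the transcription start) and searched on both strands for 5 motifs. The NRF1 letters GCGCATGC were found in 10 of them (14.7%), against 3.05% of 27025 promoters. The CLEAR-type E-box TCACGTGA, the kind of element that TFEB and TFE3 bind, was found in 1 (Ndufa7), against 1.12% of all promoters. The E-box core CACGTG, which the CLEAR-type element contains, was found in 6 (8.82%, against 8.09%), the ETS core CCGGAAGT bound by GABP in 5 (7.35%, against 4.31%) and the estrogen-related receptor element TCAAGGTCA in 2 (against 0.466%). A match describes letters in this window and is not a measured binding site.

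Promoters of 4 members are shown because they carry the 3 kinds of element and because their genes enter the comparisons. Cox6a1 (chr5:115348909-115349208, minus strand) and Ndufa11 (chr17:56717512-56717811, plus strand) carry the NRF1 letters on both strands at the same place, and capitals mark that run, which begins 162 and 60 bases before the start. Atp5g1 (chr11:96075582-96075881, minus strand) carries an E-box core that begins 44 bases before the start. Ndufa7 (chr17:33824322-33824621, plus strand, the first of 2 entries for this gene) carries the CLEAR-type element 73 bases before the start.
Cox6a1: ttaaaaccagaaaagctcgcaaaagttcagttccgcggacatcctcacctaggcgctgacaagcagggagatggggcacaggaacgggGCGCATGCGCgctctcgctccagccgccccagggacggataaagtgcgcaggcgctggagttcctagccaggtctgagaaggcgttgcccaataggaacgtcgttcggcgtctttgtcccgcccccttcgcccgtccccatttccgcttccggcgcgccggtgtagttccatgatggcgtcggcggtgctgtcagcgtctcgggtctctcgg
Ndufa11: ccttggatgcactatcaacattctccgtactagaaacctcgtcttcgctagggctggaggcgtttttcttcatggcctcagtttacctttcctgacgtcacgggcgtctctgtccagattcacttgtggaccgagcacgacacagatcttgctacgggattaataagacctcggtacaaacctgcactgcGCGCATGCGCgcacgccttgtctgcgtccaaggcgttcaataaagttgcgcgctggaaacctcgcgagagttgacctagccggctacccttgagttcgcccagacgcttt
Atp5g1: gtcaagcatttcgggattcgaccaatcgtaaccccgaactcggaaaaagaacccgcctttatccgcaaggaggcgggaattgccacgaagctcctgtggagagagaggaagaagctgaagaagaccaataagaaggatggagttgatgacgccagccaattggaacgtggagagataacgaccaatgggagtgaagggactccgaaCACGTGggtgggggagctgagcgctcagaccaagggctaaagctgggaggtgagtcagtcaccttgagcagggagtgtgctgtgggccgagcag
Ndufa7: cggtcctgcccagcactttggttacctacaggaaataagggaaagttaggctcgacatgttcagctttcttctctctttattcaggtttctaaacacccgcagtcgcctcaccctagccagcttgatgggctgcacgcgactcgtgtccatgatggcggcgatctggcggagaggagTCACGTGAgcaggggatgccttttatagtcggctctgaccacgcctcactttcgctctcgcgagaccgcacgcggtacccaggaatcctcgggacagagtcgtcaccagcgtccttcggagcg

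Library totals ran from 1652649 to 4239356 counts, and the members together took 2.28% to 3.88% of them. Counting depth limits the lowest members, since a count of 0 allows up to 0.708 to 1.82 CPM (counts scaled to library size), depending on the library, for counting error only. The fitted log2 fold change of Flcn was 0.09, 0.11 and 0.20 in the 3 crosses, that of Tfeb in the Flcn/Tfeb cross −0.73 ± 0.38 (SE) and that of Tfe3 in the Flcn/Tfe3 cross −0.09, none of them called. A tag at the 3′ end can lie outside the deleted part, so these values check no label. Some libraries stood apart. Controls 4 and 5 of the Flcn cross had 4.88% and 4.93% of their counts on mitochondrially encoded genes, against 9.98% to 11.1% in its other controls. Control 3 of the Flcn/Tfeb cross had 4.47% (9.16% and 10.7% in the other controls), and control 6 of the Flcn/Tfe3 cross had 3.01% in a set whose other controls reached up to 7.80%. The main results that rest on these libraries are given with and without them.

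Of the 84 members, 5 had too few counts to enter the fit of any single cross. They were Cox8b (0 to 11 counts per library), Cox6a2 (0 to 24), Cox8c (0 to 1), Cox7b2 (0 to 5) and the second identifier of Atp5o (0 to 1). Cox6a2 and Cox8b are the isoforms of complex IV subunits found in heart and skeletal muscle, and Cox7a1 is a further one that kidney also expresses. The 5 libraries with the highest summed level of 7 muscle genes (Acta1, Ckm, Myh3, Myh8, Tnnc2, Mb and Actc1) were those in which Cox6a2 had 13 to 24 counts. The highest of them was Flcn/Tfeb DKO 3, with a muscle sum of 309 CPM, 21 counts of Cox6a2 and 11 of Cox8b. In the other 30 libraries Cox6a2 had at most 7 counts. It was tested in the difference of effects between the Flcn/Tfe3 and Flcn/Tfeb crosses, at −2.50 ± 1.93 (SE; edgeR adjusted p = 0.592), and in some fits with libraries left out or another filter. Whether muscle tissue contributed to these libraries was not tested.

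**Figure D1:**
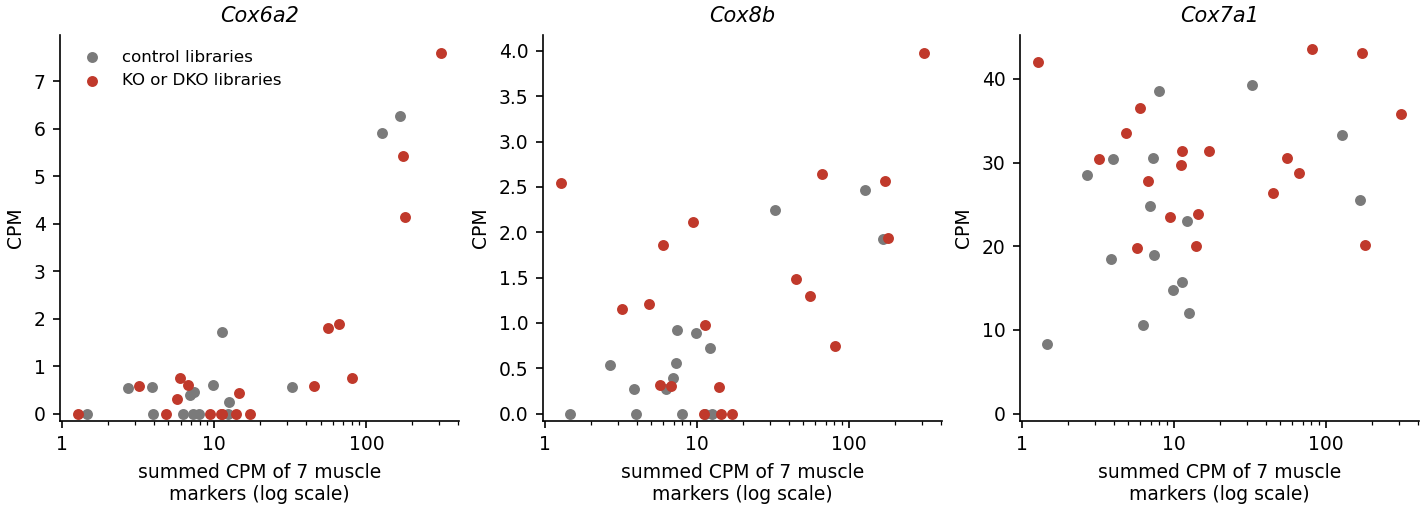
CPM of the muscle isoforms Cox6a2, Cox8b and Cox7a1 (vertical axes) against the summed CPM of 7 muscle genes (horizontal axis), 1 point per library. The 5 libraries with a muscle sum from 127 to 309 CPM are those in which Cox6a2 had 13 to 24 counts.

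The first comparison asked how the members differed between Flcn KO kidneys and the controls of the same cross. No member was called (edgeR's quasi-likelihood test with Benjamini-Hochberg adjustment over all genes tested, adjusted p under 0.05), out of 79 tested, where 0.52% of the 11932 genes were called. Fitted values were nevertheless mostly above 0, in 75 of 79 members (48.5% of all genes), with a median log2 fold change of 0.27 against −0.01 over all genes. At an unadjusted p under 0.05, 27 members were higher and 0 lower, where 5.25% of all genes were higher and 3.81% lower. The smallest adjusted p of a member was 0.151.

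The complexes differed in their medians. Complex II, the only complex that is also an enzyme of the citric acid cycle, had a median of 0.07, with 3 of 4 members above 0. Complex I had a median of 0.26 (34 of 35 above 0), complex III 0.31 (8 of 8), complex IV 0.35 (16 of 16) and complex V 0.25 (14 of 16). The highest and lowest members were Ndufs4 (0.49) and Ndufa9 (−0.01) in complex I, Sdhb (0.18) and Sdhc (−0.09) in complex II, Uqcr10 (0.47) and Uqcrfs1 (0.06) in complex III, Cox7a1 (0.77) and Cox8a (0.00) in complex IV, and Atp5k (0.43) and Atp5j (−0.05) in complex V. Without controls 4 and 5 the medians were 0.14, 0.01, 0.16, 0.16 and 0.13 from I to V. The highest and lowest members were then Ndufs3 (0.35) and Ndufs5 (−0.37) in complex I, and Sdhb (0.14) and Sdhd (−0.17) in complex II. They were Uqcrq (0.25) and Uqcrfs1 (−0.01) in complex III, and Ndufa4l2 (0.68) and Cox7c (−0.26) in complex IV. In complex V they were Atp5s (0.50) and Atp5j (−0.24). Differences between complexes were not tested.

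**Figure D2:**
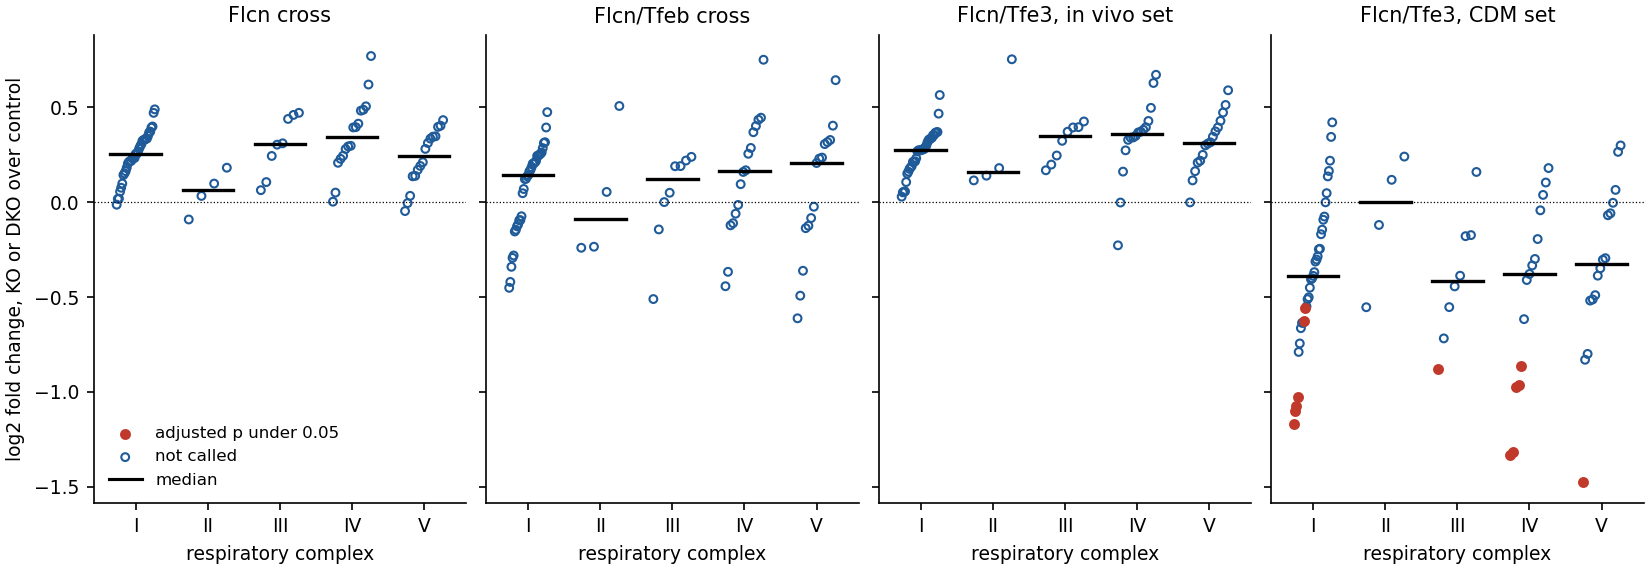
Fitted log2 fold change of each member tested (vertical axis), mutant against control, by complex I to V (horizontal axis), in the Flcn cross, the Flcn/Tfeb cross and the in vivo and CDM sets of the Flcn/Tfe3 cross. Bars are medians and red points are called members, which occur in the CDM set (13, all lower).

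The member with the smallest p was Cox5b (ENSMUSG00000061518, chr1:36691449-36693681, plus strand, mm10), a zinc-binding nuclear subunit of complex IV. Its level was 344, 308, 340, 273 and 284 CPM in the 5 controls and 420, 431, 361, 424 and 426 CPM in the 5 KO libraries. Every KO library was above every control, and the fitted log2 fold change was 0.41 ± 0.11 (SE; edgeR adjusted p = 0.151). Uqcrq, a small subunit of complex III, had 541, 501, 486, 351 and 351 CPM in controls and 623, 578, 620, 645 and 555 CPM in KO libraries, with a log2 fold change of 0.44 ± 0.14 (edgeR adjusted p = 0.272). Controls 4 and 5 were its lowest libraries, but the remaining controls were also below all KO libraries.

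In all, 8 members had every KO library above every control (1.67% of all genes did) and 0 had every KO library below (0.712%). Beside Cox5b and Uqcrq they were Cox5a (0.28 ± 0.11) and Cox6a1 (0.30 ± 0.11) of complex IV, Uqcrc2 (0.24 ± 0.10), a core protein of complex III, Ndufa11 (0.40 ± 0.14) and Ndufc2 (0.35 ± 0.11), accessory subunits of complex I, and Atp5b (0.14 ± 0.11), the catalytic β subunit of ATP synthase. Cox6a1 had 792, 730, 846, 714 and 758 CPM in controls and 889, 1010, 927, 909 and 983 CPM in KO libraries. None of the 8 was called.

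Atp5g1, which encodes the c subunit that forms the rotor ring of ATP synthase, had 325, 308, 344, 332 and 321 CPM in controls. KO libraries 2 to 5 had 486, 458, 463 and 438 CPM, and KO library 1 had 310, within the controls. Cox7a1, the member with the largest fitted change, had 25.6, 18.9, 28.6, 12 and 14.8 CPM in controls and 31.3, 30.4, 36.5, 42.0 and 26.3 CPM in KO libraries (0.77 ± 0.22, edgeR adjusted p = 0.182). The groups of Cox7a1 overlapped at KO 5, which lay between the controls. Ndufa4l2, a hypoxia-inducible paralog of Ndufa4, was fitted at 0.62 ± 0.23 (edgeR adjusted p = 0.404). Members near 0 included Sdha (0.03 ± 0.12), the flavoprotein of complex II, and Ndufa9 (−0.01 ± 0.10), an accessory subunit of complex I.

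Read per library, the mean log2 CPM of the 79 members, less that of the controls, was 0.22 to 0.34 in KO libraries. The controls lay at 0.13 to 0.19 for numbers 1 to 3 and −0.26 and −0.24 for numbers 5 and 4, so all KO libraries were above all controls but the distance depended on which control was taken. Without controls 4 and 5, a choice made after the data were seen, 63 of 79 members were above 0 (50.3% of all genes), the median was 0.14, 14 were higher at an unadjusted p under 0.05 (4.01% of all genes), and again 0 were called (0.427%). With the mitochondrial share as a covariate 6 members were called, all higher, where 1.23% of all genes were called, and 44 were higher at an unadjusted p under 0.05 (6.66% of all genes). DESeq2 called 1, Cox5b, where 0.947% of all genes were called. Those called with the covariate included Cox5b, Cox6c, Cox7a1 and Uqcrh. Other markers moved beside the members. The summed level of 6 intercalated cell markers was 397 to 555 CPM in KO libraries and 145 to 221 CPM in controls, with Atp6v1g3, Aqp6 and Atp6v0d2 called higher, and that of 6 podocyte markers was 380 to 465.5 CPM against 483 to 549.8 CPM, with 0 of 6 above 0 and 0 called. The sum of 5 thick ascending limb markers was 1208 to 1588 against 843 to 1252 CPM, but of these 3 were above 0, Umod was called higher and 1 was lower at an unadjusted p under 0.05. Of 10 proximal tubule markers 1 was above 0, with a median of −0.23 and 0 called, and their sum was 1848 to 2486 CPM in KO libraries and 2090 to 2885 CPM in controls. The sum of 4 distal convoluted tubule markers was 219 to 316 against 298 to 333 CPM. That of 6 principal cell markers was 320 to 443 against 367 to 491 CPM. Of these, 5 were above 0, Scnn1b was called higher and 1 was lower at an unadjusted p under 0.05. The part of all these markers in the members' values was not tested.

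**Figure D3:**
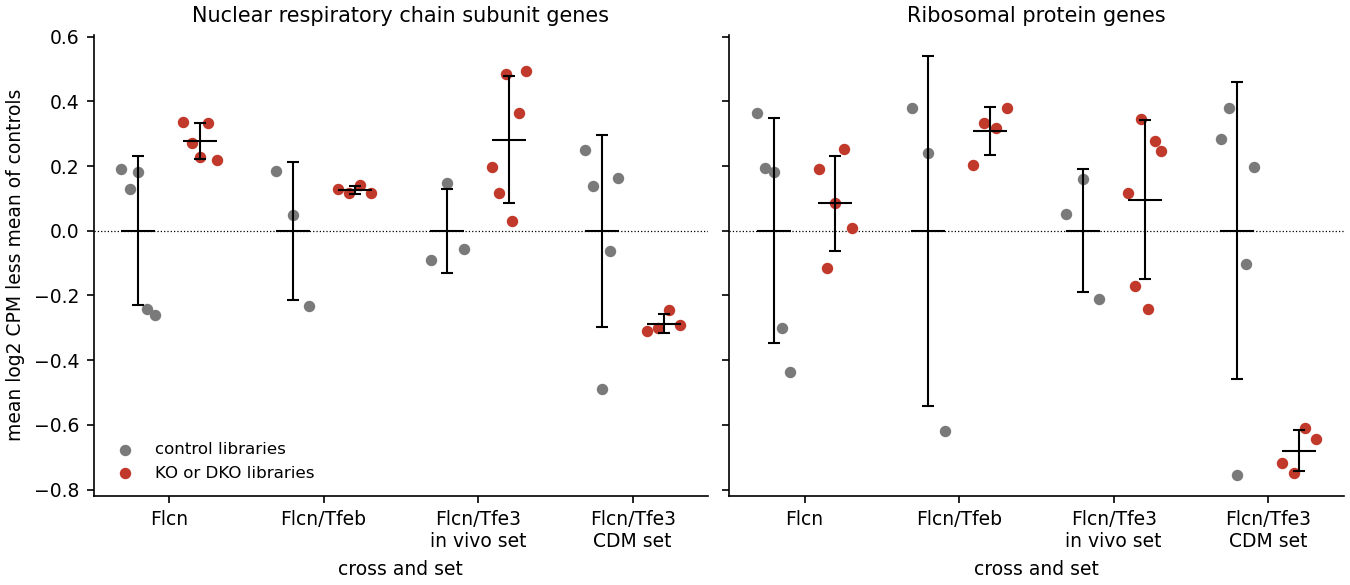
Mean log2 CPM of the members tested and of cytosolic ribosomal protein genes (vertical axes), set to 0 at the controls' mean within each cross and set, 1 point per library with the group mean and SD. The 5 Flcn KO libraries are at 0.22 to 0.34 for the members, above all their controls, and the 4 Flcn/Tfe3 DKO libraries of the CDM set are at −0.31 to −0.24, above control 6 at −0.49.

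The second comparison took Flcn/Tfeb DKO kidneys against the controls of that cross. Of 78 members tested 0 were called, as were 0% of the 12469 genes, and at an unadjusted p under 0.05 0 members were higher or lower, where 1.86% of all genes were higher and 3.21% lower. DESeq2 also called 0 members and 0 genes. Values above 0 were found for 49 of 78 members (47.9% of all genes), with a median log2 fold change of 0.15 and a smallest adjusted p of 0.798 (edgeR). By complex the medians were 0.14, −0.09, 0.12, 0.16 and 0.21 from I to V. Without control 3 they were −0.003, 0.05, −0.04, 0.09 and 0.009. In simulated counts with 2-fold changes this design recovered 161 of 200 changed genes, and smaller changes were not simulated. The sum of 6 intercalated cell markers was 252 to 266 CPM in DKO libraries and 180 to 222 CPM in controls, with 4 of 6 above 0. That of 6 podocyte markers was 325 to 386 against 396 to 499 CPM, with 1 of 6 above 0. Of 10 proximal tubule markers 0 were above 0. Of 7 muscle genes 3 were tested, all higher at an unadjusted p under 0.05 (1.86% of all genes). No marker was called, and their part in the members' values was not tested.

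Members with every DKO library above every control numbered 5 (2.71% of all genes did) and included 3 of complex I, Ndufb3, Ndufa1 and Ndufv3, with Uqcrq of complex III and Atp5h of complex V, and 0 had every DKO library below (2.94%). Ndufb3 had 260, 252 and 126 CPM in controls and 285, 319, 310 and 266 CPM in DKO libraries (0.48 ± 0.24, the highest of complex I). Ndufv3 had 237, 228 and 254 CPM in controls and 289, 303, 274 and 270 CPM in DKO libraries (0.24 ± 0.15). In Ndufb3 control 3 stood far below the other controls, while in Ndufv3 it did not.

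Several extremes of the other complexes had low counts or a control 3 far from the rest. Cox4i2, the alternative isoform of the regulatory Cox4 subunit, was fitted at 0.75 ± 0.49 with levels of 1.93 to 7.55 CPM, and Sdhd, a membrane anchor of complex II, at 0.51 ± 0.40. Atp5d, the δ subunit of the ATP synthase stalk, was the lowest member at −0.61 ± 0.30. Its controls had 252, 248.7 and 631 CPM and its DKO libraries 227 to 263 CPM, so only control 3 was high. Ndufv1, the NADH-binding subunit of complex I, had 206, 159 and 280 CPM in controls and 184, 159, 143 and 160 CPM in DKO libraries (−0.42 ± 0.20). Uqcrc1 was at 276, 215 and 483 CPM in controls and 227 to 230 CPM in DKO libraries (−0.51 ± 0.24). In both, controls 1 and 3 were above all DKO libraries and control 3 was the highest. Without control 3 the median of the members was 0.004, with 41 of 79 above 0 (50.1% of all genes) and 0 called (0% of all genes), and at an unadjusted p under 0.05 3 were higher (2.96%) and 1 lower (2.34%). With the mitochondrial share as a covariate the median was −0.06.

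**Figure D4:**
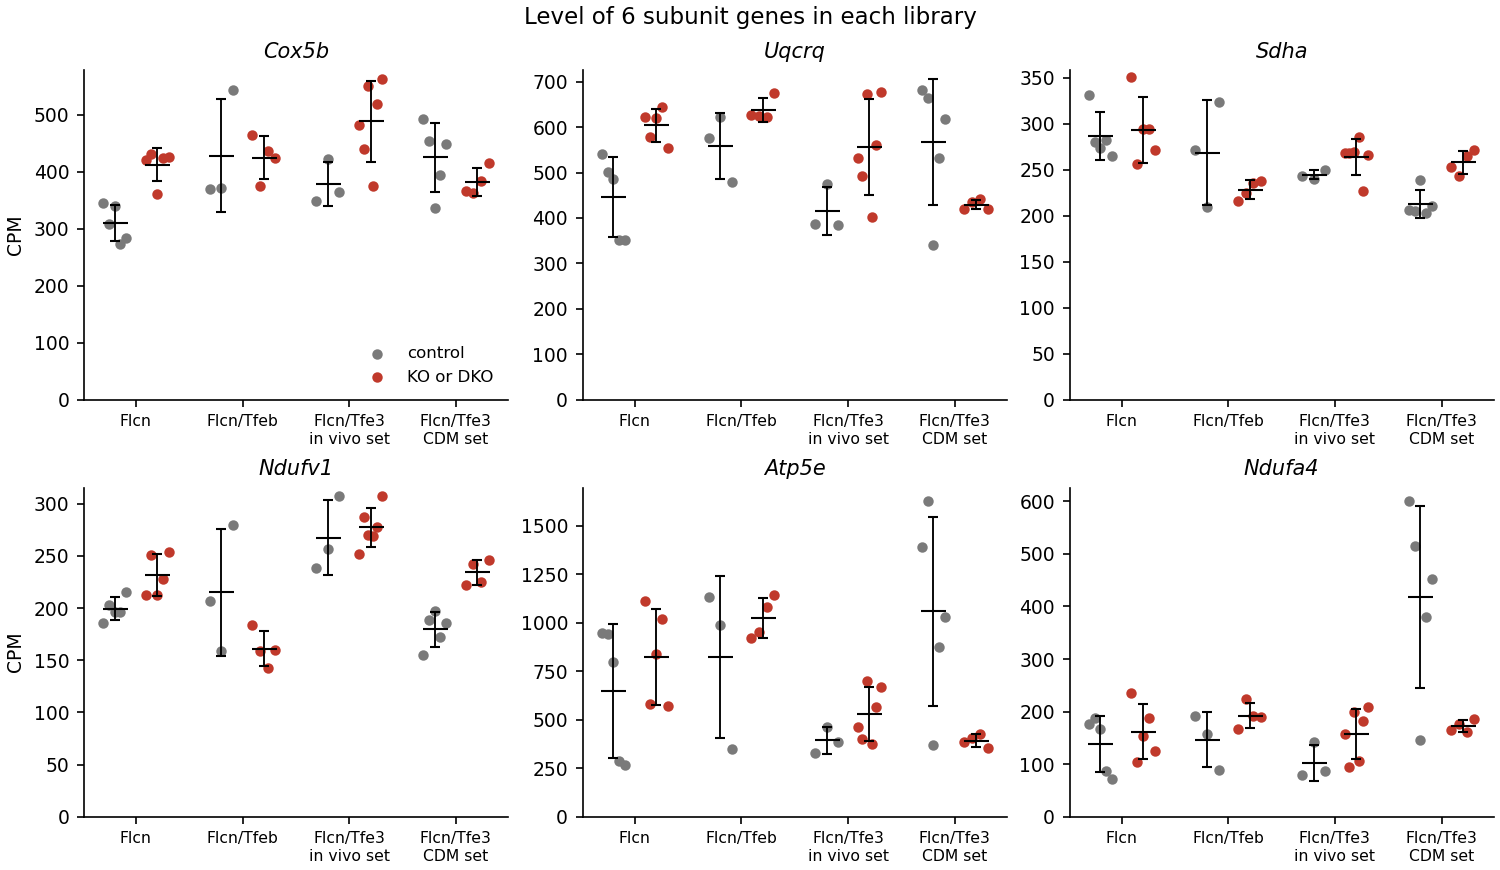
CPM (vertical axes) of Cox5b, Uqcrq, Sdha, Ndufv1, Atp5e and Ndufa4 in every library, by cross, set and group. Cox5b of the Flcn cross separates KO (361 to 431 CPM) from controls (273 to 344 CPM), and Atp5e of the CDM set shows 4 controls at 877 to 1628 CPM above control 6 and the DKO libraries at 353 to 426 CPM.

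The third comparison took Flcn/Tfe3 DKO kidneys against controls, with the set as a term in the fit. Of 79 members 0 were called (0.385% of 12456 genes), 33 were above 0 (51.9% of all genes), and the median log2 fold change was −0.02. At an unadjusted p under 0.05, 9 members were higher (3.68% of all genes) and 0 lower (3.48%). Without control 6 the median was −0.08, with 29 of 79 above 0 (51.8% of all genes), 7 higher (4.54%) and 5 lower (5.36%), and with other single libraries left out 5 to 11 were higher and 0 to 10 lower, 10 being the number without control 1. No member had all DKO libraries above all controls across both sets (0.12% of all genes did), or below (0.00803%). Medians by complex were −0.09, 0.11, −0.01, −0.11 and −0.02, with all 4 members of complex II above 0.

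The 9 higher members came from complexes I, II, IV and V. Of complex I, Ndufv1 was fitted at 0.22 ± 0.09, Ndufs7 at 0.19 ± 0.09 and Ndufa10 at 0.25 ± 0.10. Sdha of complex II was at 0.20 ± 0.08, Cox6a1 of complex IV at 0.25 ± 0.10, and the α, β and δ subunits of ATP synthase, Atp5a1, Atp5b and Atp5d, at 0.23 ± 0.10, 0.19 ± 0.09 and 0.23 ± 0.10. DESeq2 called 1 member, where it called 0.771% of all genes. The lowest values were those of small subunits, Atp5e (−0.59 ± 0.30), Cox7b (−0.48 ± 0.30), Ndufb4 (−0.44 ± 0.26) and Ndufa7 (−0.43 ± 0.22), with Uqcrh (−0.28 ± 0.20) the lowest of complex III. The near-zero median of this fit joined sets that went opposite ways, which are described next.

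In the in vivo set alone, 76 of 79 members were above 0 (50.3% of all genes) with a median of 0.30, 34 were higher at an unadjusted p under 0.05 (3.83% of all genes) and 0 lower (2.73%), and 0 were called (0.0606% of 13191 genes; smallest edgeR adjusted p = 0.752). Medians from complex I to V were 0.27, 0.16, 0.35, 0.36 and 0.31. Leaving out single libraries moved the median between 0.25 and 0.38, but the number higher at an unadjusted p under 0.05 was 1 without control 1 (2.34% of all genes) and at most 49, without DKO 4 (5.72%). In 3 members, among them Atp5g1 and Ndufb10, every DKO library was above every control (1.72% of all genes did). Atp5g1 had 321, 390 and 411 CPM in controls and 443 to 492 CPM in the 6 DKO libraries, with a median of 479. The summed level of the 6 intercalated cell markers was 296 to 456 CPM in DKO libraries and 159 to 202 CPM in controls of this set, with Atp6v1g3 and Aqp6 called higher, and their part in the members' values was not tested.

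In the CDM set alone the members were lower. Of 78 tested 13 were called, all lower, where 4.68% of 12169 genes were called and 3.78% were called lower, and 63 were below 0, with 15 above (49.6% of all genes). At an unadjusted p under 0.05, 41 members were lower (12.7% of all genes) and 3 higher (8.63%), and the median was −0.37. Complexes I, III, IV and V had medians of −0.39, −0.42, −0.38 and −0.33, while complex II had −0.0008. The members that fell were Ndufb4, Ndufa7, Ndufb6, Ndufs4, Ndufb8 and Ndufv2 of complex I, Uqcrh of complex III, Cox7b, Ndufa4, Cox7a2, Cox7c and Cox6c of complex IV, and Atp5e of complex V. Most of them are small accessory subunits, while Ndufv2 carries an iron-sulfur cluster next to the NADH site and Ndufs4 is needed for a stable NADH-oxidising arm.

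Atp5e (ENSMUSG00000016252, chr2:174461072-174464105, minus strand, mm10), the ε subunit of the ATP synthase stalk, had 1391, 1628, 369, 877 and 1027 CPM in CDM controls 4 to 8 and 384, 408, 426 and 353 CPM in DKO libraries 7 to 10. The fall was −1.47 ± 0.28 (SE) on the log2 scale (edgeR adjusted p = 0.00875). Control 6 lay among the DKO libraries, so the groups overlapped, as they did for all 13. Ndufa4 (ENSMUSG00000029632), a subunit of complex IV first assigned to complex I, had 600, 514, 146, 379 and 452 CPM in controls and 165, 177, 161 and 186 CPM in DKO libraries (−1.32 ± 0.27, edgeR adjusted p = 0.0104). Again control 6 was the lowest and the other 4 controls were at least 379 CPM. In the in vivo set the same gene had only 79.1, 142 and 86.6 CPM in controls and 95.2 to 208 CPM in DKO libraries, with a median of 170, so it was the 4 CDM controls that stood high within the cross.

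Ndufb4 had 168, 273, 60.6, 119 and 163 CPM in CDM controls and 67.9, 82.2, 75.1 and 58.2 CPM in DKO libraries (−1.17 ± 0.28). Ndufa7, the member with the CLEAR-type element shown above, had 412, 530, 176, 331 and 390 CPM in controls and 176, 178, 198 and 152 CPM in DKO libraries (−1.10 ± 0.22, edgeR adjusted p = 0.0109). Both had 4 high controls and control 6 among the DKO libraries. The count of 13 depended on single libraries. It was 48 (46 lower, 2 higher) without control 6, where 19.9% of all genes were called and 11.7% were called lower. It was 0 without DKO 7, DKO 8 or DKO 10 (0.302%, 0.31% and 0.212% of all genes called). Without controls 4, 5, 7 and 8 it was 4, 6, 11 and 5 (1.66%, 2.48%, 3.25% and 1.79% of all genes), and without DKO 9 it was 5 (1.73%), while the median stayed between −0.48 and −0.30. Without control 6 the falls were −1.69 for Atp5e, −1.54 for Ndufa4, −1.38 for Ndufb4 and −1.28 for Ndufa7.

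Some members went the other way in the CDM set. At an unadjusted p under 0.05 these were 3 of 78, a smaller share than that of all genes given above. In 5 members, among them Atp5d, Sdha, Ndufa10 and Ndufv1, every DKO library was above every control (3.74% of all genes did), and in 1 member, Ndufc2, every DKO library was below (2.28%). Sdha had 206, 205, 239, 203 and 210 CPM in controls and 252, 243, 264 and 271 CPM in DKO libraries (0.24 ± 0.12, edgeR adjusted p = 0.261). In the in vivo set it had 243, 240 and 250 CPM in controls and 227 to 285 CPM in the 6 DKO libraries, with a median of 268, and there the groups overlapped (0.12 ± 0.11). Ndufv1 had 155, 189, 198, 172 and 186 CPM in CDM controls and 223, 242, 225 and 246 CPM in DKO libraries (0.34 ± 0.13, edgeR adjusted p = 0.12), but in vivo the fit gave 0.06 ± 0.12. Ndufa10 followed the same pattern, with 0.42 ± 0.14 (edgeR adjusted p = 0.0836) and 0.03 ± 0.11. Without control 6 Ndufv1 (0.37 ± 0.12, edgeR adjusted p = 0.0293) and Ndufa10 (0.50 ± 0.12, edgeR adjusted p = 0.00435) were called higher in the CDM set, and Sdha (0.28 ± 0.12, edgeR adjusted p = 0.0945) was not.

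The difference of the effects between the sets was itself tested as an interaction, added after the data were seen. Of 79 members 10 were called, all with a higher change in the in vivo set (1.3% of all genes were called), and 47 passed an unadjusted p of 0.05 with a higher change and 1 with a lower one (11.3% and 10.7% of all genes). The median difference was 0.54 log2 units, and 70 members were above 0 (47% of all genes). The called members were Ndufa4 (1.90), Atp5e (1.85), Cox7b (1.78), Ndufb6 (1.59), Ndufa7 (1.35), Ndufs4 (1.32), Cox7a2 (1.29), Uqcrh (1.21), Cox6c (1.17) and Cox4i1 (0.999). This count also rested on single libraries, with 48 without control 6 (13.4% of all genes), 31 without DKO 4 (7.28%), 18 without DKO 2 (2.73%) and 0 without control 1, 3, 4, 5 or 8 or without DKO 3 or any of DKO 5 to DKO 10. The sets also differ in the table they were deposited in, and set and any difference in handling cannot be told apart.

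Within the CDM set other quantities moved with the members. The score of cytosolic ribosomal protein genes was −0.748 to −0.610 in DKO libraries and −0.755 to 0.379 in controls. That of mitochondrially encoded subunits was −0.98 to −0.57 against −0.83 to 0.63. The lowest control was thus below all DKO libraries in the first score and among them in the second. The mitochondrial share was 2.73% to 4.27% in DKO libraries and 3.01% to 7.80% in controls. The share of reads on no gene was 7.92% to 10.5% against 8.78% to 18.4%. The summed level of 6 red blood cell markers was 1438 to 1900 CPM against 2135 to 7841 CPM, with Hba-a1, Hba-a2, Hbb-bs and Hbb-bt called lower, and that of 6 intercalated cell markers 287 to 395 against 173 to 268 CPM. Of these intercalated cell markers Aqp6 and Atp6v0d2 were called higher. The sum of 10 proximal tubule markers was 1815 to 2006 CPM in DKO libraries, below all controls at 2009.6 to 2311 CPM, with 2 of 10 above 0 and Fbp1 and Gatm called lower. The sum of 5 thick ascending limb markers was 977 to 1046 against 752 to 985 CPM, with 2 of 4 tested above 0 and Umod called higher. That of 6 principal cell markers was 342 to 483 against 457 to 570 CPM, with 3 of 6 above 0 and Aqp2 called lower. Their part in the members' values was not tested.

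Interaction terms compared the effects of the crosses, each measured from its own controls. Of the members 0 were called for Flcn/Tfeb less Flcn (0.0153% of 13049 genes), with a median of −0.18 and 14 of 79 above 0. At an unadjusted p under 0.05, 1 was higher (2.24% of all genes) and 7 lower (3.71%). The lowest of these by p was Ndufv1, at −0.64 ± 0.20 (edgeR adjusted p = 0.652). Without controls 4 and 5 of the Flcn cross the median was −0.005, with 39 of 79 above 0 (48.9% of all genes) and Ndufv1 at −0.66. Without control 3 of the Flcn/Tfeb cross the median was −0.25, with 10 of 80 above 0 and Ndufv1 at −0.39. For Flcn/Tfe3 less Flcn 0 were called (0% of 13209 genes), with a median of −0.31 and 13 of 79 above 0 (52.3% of all genes). At an unadjusted p under 0.05, 0 were higher (3.46%) and 14 lower (3.94%), and DESeq2 called 0 members and 1 gene. With the CDM set alone this difference called 21 members, all lower (3.58% of all genes), and with the in vivo set alone its median was 0.01. Its median was −0.20 without controls 4 and 5 of the Flcn cross, where 0 members were lower at an unadjusted p under 0.05 (1.73% of all genes), and −0.35 without control 6 of the Flcn/Tfe3 cross, where 26 were (5.37%). For Flcn/Tfe3 less Flcn/Tfeb 0 of 80 were called (0.022% of 13637 genes), with a median of −0.22. At an unadjusted p under 0.05, 10 were higher (7.57%) and 1 lower (4.6%), and without control 3 of the Flcn/Tfeb cross the median was −0.09, with 2 higher (1.63%) and 1 lower (2.46%). Without control 6 of the Flcn/Tfe3 cross it was −0.27, with 9 higher (8.79%) and 5 lower (5.63%). These 3 differences share libraries in pairs and are not independent. In simulated counts, with the same simplified settings as above, the first of them recovered 70 of 200 genes changed 2-fold.

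Members with short annotated transcripts differed from members with long ones. Length is the median over the annotated transcripts of a gene, and the length of the transcripts expressed here was not measured. The median transcript length was 683 nucleotides for the members and 2209 for all genes of the Flcn cross. Across genes, which are not independent replicates, Spearman's correlation of length with the log2 fold change over the members was −0.33 for Flcn KO, −0.39 for Flcn/Tfeb DKO and 0.41 for Flcn/Tfe3 DKO against their controls, against −0.21, −0.05 and 0.15 over all genes. In the CDM set it was 0.45 (0.29 over all genes) and in the in vivo set −0.26 (−0.22). The 29 members under 600 nucleotides had a median of −0.51 in the CDM set, beside −0.24 for the 404 other genes of that length, and the 7 members from 1200 to 1999 nucleotides had 0.05. The correlation over the members thus had the sign of that over all genes in each comparison. The 3 members with an annotated length of 2000 nucleotides and over went against it in the Flcn cross, with a median of 0.40 beside 0.31 under 600. In the in vivo set these medians were 0.345 and 0.340. The part of length was not tested.

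**Figure D5:**
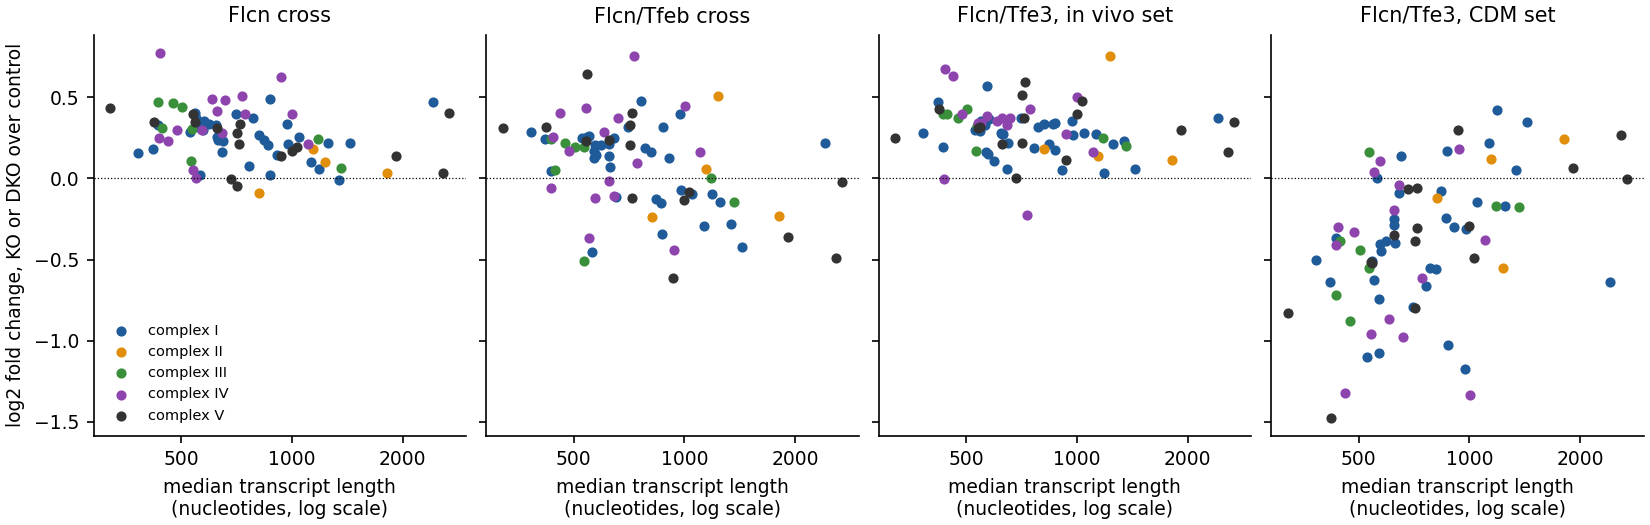
Fitted log2 fold change of each member (vertical axis) against its median annotated transcript length in nucleotides (horizontal axis), in the Flcn cross, the Flcn/Tfeb cross and the in vivo and CDM sets of the Flcn/Tfe3 cross. In the CDM set the 29 members under 600 nucleotides have a median of −0.51 and the 7 from 1200 to 1999 nucleotides 0.05.

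Members also differed in how far replicates of a group spread. The SD of log2 CPM within groups had a median of 0.27 over 78 members and 0.31 over 11733 genes. It was lowest for Sdha (0.14), Atp5g1 (0.15), Sdhb (0.15), Uqcrc2 (0.15), Ndufa12 (0.15) and Ndufv1 (0.16), and highest for Sdhd (0.65), Atp5e (0.60), Cox4i2 (0.57), Cox7b (0.57), Atp5l (0.55), Ndufb4 (0.53) and Ndufa4 (0.52). Among the members that fell in the CDM set, Atp5e, Cox7b, Ndufb4 and Ndufa4 were therefore among those with the widest spread. The SD includes the CDM controls, which also enter those falls, so the spread and the falls are not independent.

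The genes that support these complexes were counted from lists. Among 46 assembly factors tested, 0 were called in the Flcn cross (39 above 0, median 0.16), 0 of 45 in the Flcn/Tfeb cross (29 above 0, median 0.11) and 0 of 46 in the Flcn/Tfe3 cross (11 above 0, median −0.08), beside 48.5%, 47.9% and 51.9% of all genes above 0. In the in vivo set 37 of 46 were above 0 with a median of 0.12 (50.3% of all genes above 0), and in the CDM set 8 of 46 with a median of −0.26 (49.6%). In the CDM set 1 of them rose, Cox10 (0.896% of all genes did), and 8 fell (3.78% of all genes did), with Coa6 at −1.59 and Coa3 at −1.02. Of 14 subunits and carriers outside the naming rule, Cycs, the electron carrier cytochrome c, rose in the Flcn cross, where 0.52% of all genes were called. In the in vivo set 13 of the 14 were above 0 (50.3% of all genes) with a median of 0.32 and 0 called. In the CDM set 4 of 14 were above 0 (49.6%) with a median of −0.24, and Atpif1 and Usmg5 fell (3.78% of all genes did). Cycs had 71.4, 55.0, 66.8, 48.6 and 50.3 CPM in controls and 81.7, 97.3, 90.8, 105 and 80.2 CPM in KO libraries (0.65 ± 0.13, edgeR adjusted p = 0.0283). All KO libraries were above all controls, but the call held in only 4 of 10 fits with a library left out (adjusted p from 0.0136 to 0.0978), being lost without control 2, 4 or 5 or KO 2, 3 or 4. It was also lost without controls 4 and 5 together, in a fit of all 35 libraries and with the replicate number as a block (edgeR adjusted p from 0.00275 to 0.154 over all 10 such alternatives).

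Of 11 mitochondrially encoded subunits tested, 0 were called in each cross, with medians of 0.21, 0.50 and −0.44. The first 2 medians include the controls with low mitochondrial shares. In the Flcn cross controls 4 and 5 had 4.88% and 4.93%, controls 1 to 3 9.98% to 11.1%, and KO libraries 7.33% to 11.1%. The median summed level there was lower in KO libraries (86530 CPM) than in controls (106173 CPM). In the Flcn/Tfeb cross control 3 had 4.47%, controls 1 and 2 9.16% and 10.7%, and DKO libraries 10.4% to 11.9%. In the in vivo set 9 of 11 were above 0 with a median of 0.13, and in the CDM set 0 of 11 were, with a median of −0.89, and mt-Cytb, mt-Co1 and mt-Co3 fell, where 3.78% of all genes were called lower. Of 16 enzymes of the citric acid cycle and pyruvate dehydrogenase 0 were called in each cross, with 14, 1 and 16 above 0 (48.5%, 47.9% and 51.9% of all genes) and medians of 0.09, −0.23 and 0.21, and in the CDM set Ogdh rose (0.896% of all genes did).

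Of 14 regulators of respiratory genes 0 were called in the Flcn and Flcn/Tfeb crosses, and 2 rose in the Flcn/Tfe3 cross (0.385% of all genes were called), the co-activator Ppargc1a (0.63 ± 0.13, edgeR adjusted p = 0.0172) and the estrogen-related receptor Esrrg (0.71 ± 0.12, edgeR adjusted p = 0.00395). Esrrg had 26.3, 25.9, 30.1, 28.3 and 21.7 CPM in CDM controls and 47.9, 57.4, 44.0 and 50.1 CPM in DKO libraries. In the in vivo set it had 18.4, 21.4 and 25.8 CPM in controls and 25.1 to 40.7 CPM in DKO libraries (median 29.2). The groups did not overlap in the CDM set and overlapped in the in vivo set, where neither gene was called alone. Ppargc1a had 67.1, 82.1, 121, 79.1 and 89.6 CPM in CDM controls and 167, 168, 154 and 160 CPM in DKO libraries. The call of Esrrg held with each library left out (18 of 18 fits) and that of Ppargc1a in 15 of 18, being lost without control 7, DKO 7 or DKO 8 and with Xist or the mitochondrial share as a covariate. Both calls were lost with the replicate number as a block (edgeR adjusted p = 0.99994 for each). In the Flcn cross Esrrg was fitted at 0.58 (edgeR adjusted p = 0.0507) and Ppargc1a at 0.35 (edgeR adjusted p = 0.259). In the CDM set 2 of the 14 regulators, Ppargc1a and Esrrg, were called higher (0.896% of all genes were) and 8 of 14 were above 0, while 13 members fell. The relation between these was not tested.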

How the data were processed

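RNA of 35 mouse kidney libraries was measured. Reads were trimmed by the authors with bbduk, mapped to mm10 by STAR and assigned to genes with HTSeq-count 0.9.1, and the labels' processing notes name Trim Galore, STAR and mm10. The values deposited by the authors are raw counts per gene, without normalization. A deposited column with the percent of multi-mapped reads of each gene was not used in a test. Rows that name no gene were left out of totals and tests. In the libraries that list them, reads on no gene were 7.92% to 19.9%. Counting depth was 1652649 to 4239356 per library, and it limits the precision of low genes.

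Each cross was fitted in edgeR 4.0.16 (R 4.3.3) by the two-sided quasi-likelihood F test, after filterByExpr by group and TMM scaling, with the set as a term for the Flcn/Tfe3 cross. Groups came from the labels' genotype. Benjamini-Hochberg adjustment of p-values ran over all genes tested. Called means an adjusted p under 0.05. SE is the size of the log2 fold change divided by the square root of F. CPM use TMM-scaled library sizes, and log2 CPM a prior count of 2. The labels call libraries of a group biological replicates. Pairs of libraries of a group (63) differed by a chi-square per degree of freedom of 2.80 to 41.6, so none was counted as a duplicate. The fits were tested on simulated counts with 200 genes changed 2-fold. These counts had the same spread beyond counting error for every gene, and no library that stood apart. Gene positions and transcript lengths came from GENCODE M21.

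Members and lists were chosen with earlier results of these data known. The genes named are a list of subunits and isoform pairs, every called member, the highest and lowest member of each complex in each cross with a mean of at least 10 counts, and the members that failed the filter. Other genes were named after their values were seen. Values of 1 of these members are left out here, and others enter only counts, medians and ranges. Alternatives were DESeq2 1.42.0, RLE factors, other filters, covariates, the replicate number as a block, single sets, fits with doubtful libraries removed, and the removal of each library in turn. Figures were drawn with matplotlib 3.10.9.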

Additional observations from a re-analysis of the deposited data

Results flagged for a closer look

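Of 323 groups of 4 to 6 libraries in which a named member or a score was examined, 20 had a highest or lowest library far from the rest, and chance alone gives about 1 in 20. Values are log2 CPM. In Flcn KO libraries they were Atp5b in replicate 1 (9.75, high), Atp5g1 in replicate 1 (8.28, low), Cox5b in replicate 3 (8.50, low), Ndufa1 in replicate 3 (6.41, low), Ndufb3 in replicate 3 (7.21, low) and Ndufs5 in replicate 4 (3.75, high). In controls of the Flcn cross they were Ndufa1 in replicate 5 (5.96, low), Ndufa4l2 in replicate 2 (2.94, low) and Sdha in replicate 1 (8.37, high). In Flcn/Tfeb DKO libraries Cox8a in replicate 4 was low (7.90).

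In the Flcn/Tfe3 cross libraries were set against those of their own set only. In DKO libraries of the in vivo set they were Atp5l in replicate 4 (4.21, low) and Sdha in replicate 5 (7.83, low), and in DKO libraries of the CDM set the score of complex V in replicate 9 (−0.211, high), and Cox7a1 (4.59) and Ndufb3 (8.38) in replicate 10, both high. In controls of the CDM set they were Atp5b in replicate 4 (10.0, high), Ndufa4l2 in replicate 8 (4.37, high), Ndufs1 (7.06, high) and Uqcrc1 (7.09, low) in replicate 5, and Sdha in replicate 6 (7.90, high).

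The effect in the Flcn/Tfe3 cross differed between the in vivo and CDM sets for 10 members by an interaction term (edgeR's quasi-likelihood test, Benjamini-Hochberg adjusted p from 0.0428 to 0.0474). The log2 differences were 1.85 for Atp5e, 1.32 for Ndufs4, 1.90 for Ndufa4, 1.78 for Cox7b, 1.35 for Ndufa7, 1.59 for Ndufb6, 1.29 for Cox7a2, 1.21 for Uqcrh, 0.999 for Cox4i1 and 1.17 for Cox6c.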

How the results depend on the processing

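In the Flcn cross DESeq2 called 1 member and the mitochondrial share as a covariate 6, against 0. In the Flcn/Tfe3 cross DESeq2 called 1 and the CDM set alone 13, against 0, and Flcn/Tfe3 less Flcn called 21 with the CDM set alone. With single libraries left out, Flcn/Tfe3 less Flcn/Tfeb called 0 to 4 (4 without Flcn/Tfeb control 2, where 0.588% of all genes were called), the CDM set alone 0 to 48, and the difference between sets 0 to 48. The median was −0.060 in the Flcn/Tfeb cross with the covariate, and 0.300 and −0.373 in the Flcn/Tfe3 cross with the in vivo and CDM sets alone. The cause was not tested. With single libraries left out, the medians ran from 0.210 to 0.304, from 0.004 to 0.235 and from −0.115 to 0.025 in the 3 crosses.

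Same-numbered libraries did not deviate together (correlations of −0.23 to 0.32 in the Flcn cross, for example), so the numbers were not taken as pairs. With the replicate block 0 members were called in all 6 comparisons of or between crosses, where 0.402%, 0% and 0.0161% of all genes were called in the 3 crosses and 0% between them, with medians of 0.269, 0.161 and 0.011. RLE factors, other filters, mitochondrial genes left out, Xist as a covariate and all libraries in one fit called 0 members in the 3 crosses, where 0.473% to 0.534%, 0% to 0.0219% and 0.209% to 0.386% of all genes were called. Depth limits the members that failed the filter, and the spread between libraries limits changes as small as the medians above.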
